A study of Camelina sativa with 12 samples.

Results

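The genes described here are the 100 transcripts that were lowest, relative to every other group, in salt-treated shoots of *Camelina sativa* grown in soil treated with *Pseudomonas migulae* 8R6. They were chosen from the 89418 genes of the count table on CPM, each count divided by the total of its library and scaled to 1e+06 counts. A gene qualified when its mean was 2 CPM or more in each of the other 3 groups and all 3 libraries of the 8R6 group lay below all 9 other libraries. Of the 42079 genes with that minimum, 948 (2.25%) met the rule. They were ranked by the log2 ratio of the smallest of the 3 other group means to the 8R6 mean, with 0.5 CPM added to each, and the first 100 were kept. Each value with 8R6 below is therefore a description, because the levels that chose the genes were those same values. Calls made below on contrasts with 8R6 are for that reason no test of the members.

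The study sequenced RNA of whole shoots in 12 libraries, 3 biological replicates from each of 4 groups. The first group was cv. DH55 grown in soil inoculated with *P. migulae* 8R6, a bacterium that makes 1-aminocyclopropane-1-carboxylate (ACC) deaminase, the enzyme that breaks down the precursor of ethylene. The *35S::acdS* and *rolD::acdS* groups were each a single-copy DH55 line that carried the ACC deaminase gene *acdS* of *Pseudomonas* sp. UW4. The 35S promoter is the doubled promoter of cauliflower mosaic virus and *rolD* comes from *Agrobacterium rhizogenes* and is known for activity in roots. The control was DH55 with no bacterium and no transgene, given the buffer in which the bacterium was suspended, as were both transgenic lines. All 12 libraries came from plants watered with 192 mM NaCl (15 dS per m) for 21 days and harvested at 28 days, so an unsalted level is not part of these comparisons. The days of salt and the age are those the study gives for its RNA samples. Its account of the salt treatment starts the saline water later after sowing, so the length of exposure is uncertain. Each transgene is represented by 1 line, and in whole shoots fewer cells of a type and less RNA per cell cannot be told apart.

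In *A. thaliana*, salt and water deficit raise abscisic acid (ABA), which through ABI5 and related factors switches on genes for late embryogenesis abundant (LEA) proteins, dehydrins and raffinose family sugars. The same hormone induces its own brakes, clade A protein phosphatases 2C (PP2C) and ABI5 binding proteins (AFP). Jasmonate, made from linolenic acid by lipoxygenases and allene oxide cyclases, relieves repression by JAZ proteins and at the same time induces JAZ genes, and it is inactivated by CYP94 enzymes and amidohydrolases. Members of all of these groups were among the 100 genes. *C. sativa* has 3 sub-genomes, so 1 gene of *A. thaliana* often has up to 3 homeologues.

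Library totals ranged from 10520627 to 23587748 counts, and the smallest count of any member in an 8R6 library was 4. Annotation came from the study's supplementary lists of changed genes and covered 90 of the 100 members, all of them in its 8R6 list. That list was chosen on these same libraries and is not independent evidence of the direction. An *A. thaliana* orthologue was given for 83 members, which fell on 60 orthologues. As a check of the tissue, the summed level of 4 annotated photosystem and light harvesting genes was 114 to 136 CPM with 8R6, 41.7 to 57.5 CPM in *35S::acdS*, 56.0 to 74.99 CPM in *rolD::acdS* and 38.2 to 53.5 CPM in the control. The 4 annotated root marker genes (WOX5, HAK5 and NRT2.6) summed to 1.95 to 3.24 CPM with 8R6, 5.23 to 6.96 CPM in *35S::acdS*, 2.47 to 10.3 CPM in *rolD::acdS* and 6.998 to 8.97 CPM in the control. Most of this sum was the HAK5 gene Csa11g041660, with 1.52 to 3.03 CPM with 8R6 and 5.13 to 7.27 CPM in the control. The other root marker genes were at 0.977 CPM or less in every library. The 2 annotated seed marker genes summed to 5.14 to 7.41 CPM with 8R6, 1.95 to 3.06 CPM in *35S::acdS*, 1.77 to 4.37 CPM in *rolD::acdS* and 2.88 to 3.999 CPM in the control. These 2 genes went opposite ways, so the sum reflects mainly the more abundant one. Csa03g004180 had 5.09 to 7.34 CPM with 8R6 and 2.25 to 3.599 CPM in the control. Csa10g004530 had 0.0476 to 0.0865 CPM with 8R6 and 0.379 to 0.636 CPM in the control. None of these marker genes was a member or at 0 in all libraries of a group, and they too were annotated because the study had listed them as changed. Their part in the levels of the members was not tested.

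Summed over the 100 genes, the level was 1527, 1339 and 990.0 CPM in the 8R6 libraries, 4896, 4721 and 2720 CPM in *35S::acdS*, 3905, 3410 and 3219 CPM in *rolD::acdS* and 4277, 2556 and 3702 CPM in the control. Library 3 of the 8R6 group was lowest of its 3 for 63 of the members. In the same way, library 3 of *35S::acdS* was lowest for 64 and library 2 of the control for 79. The smallest other group mean exceeded the 8R6 mean 1.84-fold to 7.13-fold, with a median of 2.43-fold. Between the highest 8R6 library and the lowest of the 9 others, the median gap was 1.24-fold. That gap was over 2-fold for 3 members, Csa11g065360, Csa03g046520 and Csa17g035560, and under 1.2-fold for 38. The lowest of the 9 others was control library 2 for 40 members and *35S::acdS* library 3 for 28.

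**Figure D1:**
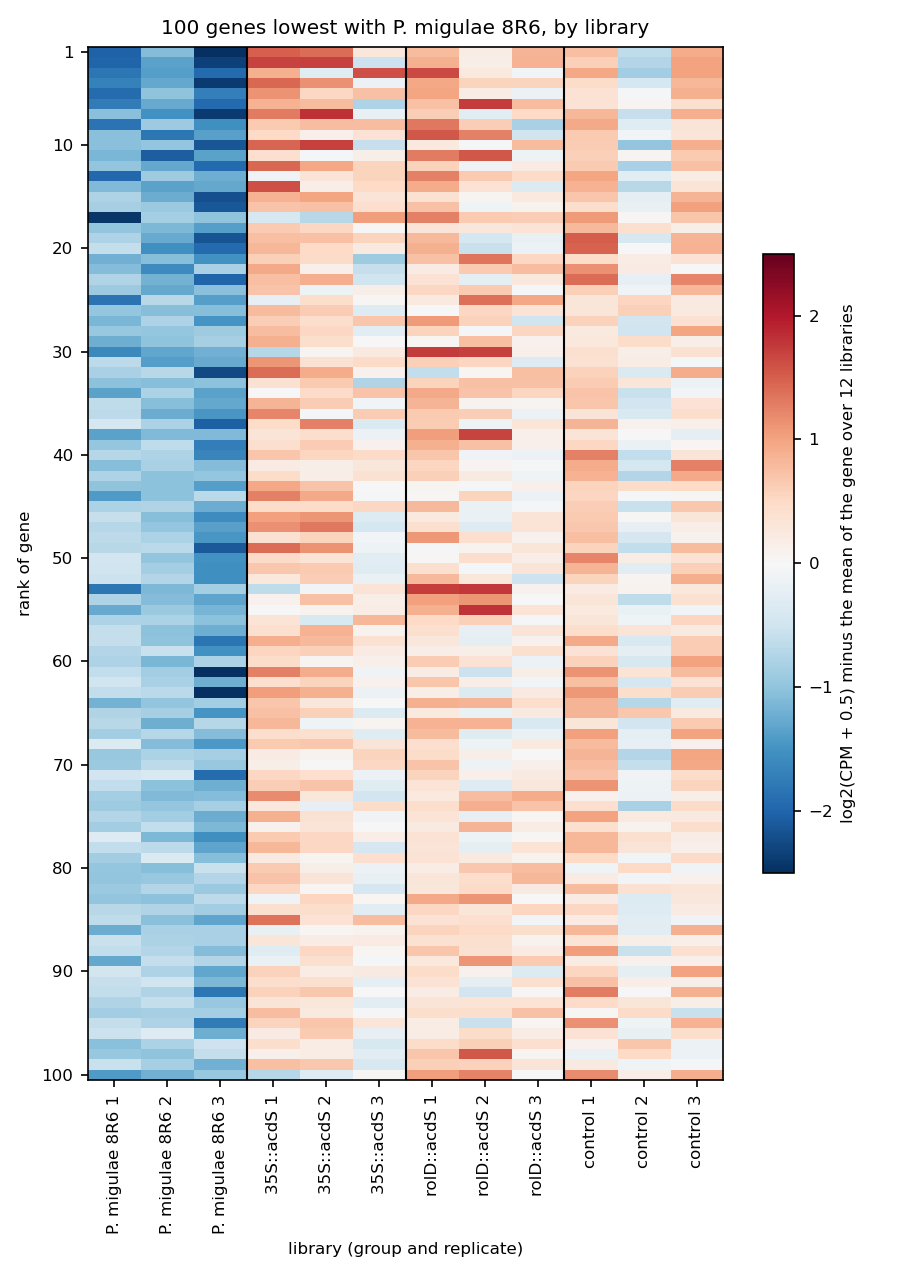
Each row is 1 of the 100 genes in order of rank and each column 1 library; colour gives log2(CPM + 0.5) minus the mean of that gene over the 12 libraries. The 3 columns of the 8R6 group are low throughout, as the rule required, and among the other 9 columns library 3 of *35S::acdS* and library 2 of the control are palest.

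The median fitted log2 fold change of the members was -1.52 against *35S::acdS*, -1.47 against *rolD::acdS* and -1.52 against the control, where the medians over all 56932 genes fitted were 0.0002, -0.0009 and 0.0029 in the same order. Without control library 2 the median against the control was -1.73, and without control library 1 it was -1.34. Genes whose 3 8R6 libraries lay below all 3 libraries of the other group made up 12.4% of all genes against *35S::acdS*, 9.04% against *rolD::acdS* and 7.24% against the control, and all 100 members did so by the rule. At the call used for the whole table (adjusted p of 0.05 or less in edgeR's quasi-likelihood test and over 2-fold), 7 members were lower against *35S::acdS* (0.0158% of all genes), 16 against *rolD::acdS* (0.0615%) and 0 against the control (0%). DESeq2 called 88, 78 and 79 members lower in the same order, and 421, 281 and 185 of all genes. With limma, 11, 26 and 2 members and 15, 51 and 3 of all genes were called lower. Counting the members that DESeq2 and limma called in these contrasts was added after the data were seen. At an unadjusted p under 0.05 edgeR counted all 100 members lower each time, and 5777, 3518 and 2978 of all genes. The edgeR calls depended on single libraries. Without control library 2, 76, 47 and 28 members and 295, 114 and 75 of all genes were called lower in that order. Without 8R6 library 2 or 3, 0 members were called in all 3 comparisons. Over all libraries left out in turn the members called ran between 0 and 76, 0 and 47, and 0 and 28. With the replicate block they were 36, 18 and 7, where 75, 37 and 13 of all genes were called lower. Nothing is read from these counts, or from how far they exceed those of all genes, since the rule used the same contrasts. Replicates of the members were wider apart than those of the 42079 genes. The median coefficient of variation was 27.2% with 8R6, 28.6% in *35S::acdS*, 25.4% in *rolD::acdS* and 34.4% in the control, where over the 42079 genes it was 12.6%, 12.7%, 12.7% and 12.4% in the same order.

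The place of the last member was narrow, and the list depended on single libraries. When 1 library was left out and the rule applied again, between 44 and 96 of the 100 genes stayed among the first 100, with 44 without control library 2 and 51 without 8R6 library 1. The rule then took 1539 and 2527 genes before ranking, since a gene separated from 9 libraries stays so when 1 library is dropped. Ranks 96 to 100, Csa16g032680, Csa13g057140, Csa14g020950, Csa11g104180 and Csa02g071910, had log2 ratios of 0.88, 0.88, 0.87, 0.87 and 0.87. The first 5 genes outside, Csa11g100040, Csa06g053190, Csa12g036900, Csa19g014220 and Csa07g038320, had 0.86, 0.85, 0.85, 0.85 and 0.84. Csa11g100040 and Csa12g036900 are homeologues of members, of *BT1* and *MYB102*.

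The largest group was that of LEA, dehydrin and desiccation proteins, with 9 members of 20 annotated genes, 4 of them among the first 7 ranks. Of the 10 other genes of this list that were fitted, 3 were higher with 8R6 than in *35S::acdS*. Against *rolD::acdS* 3 of the 10 were higher with 8R6, and against the control 0. All 3 homeologues of *RD29B* (annotated as CAP160), a gene known in *A. thaliana* for induction by ABA and desiccation, were at ranks 1, 2 and 4. Csa18g023200 had 13.1, 25.3 and 6.71 CPM in the 8R6 libraries, 153, 144 and 66.04 CPM in *35S::acdS*, 94.5, 61.96 and 99.04 CPM in *rolD::acdS* and 91.6, 35.1 and 104 CPM in the control. Csa11g083980 had 2.94, 4.94 and 2.24 CPM in the 8R6 libraries, 44.1, 44.4 and 9.01 CPM in *35S::acdS*, 25.01, 14.8 and 24.7 CPM in *rolD::acdS* and 20.1, 7.77 and 27.2 CPM in the control. Csa02g045340 had 5.49, 7.54 and 3.19 CPM in the 8R6 libraries, 52.1, 42.5 and 17.1 CPM in *35S::acdS*, 37.6, 28.1 and 28.1 CPM in *rolD::acdS* and 26.1, 13.8 and 34.04 CPM in the control. For each of the 3 genes, *35S::acdS* libraries 1 and 2 were the highest of the 12, and control library 2 was the lowest outside the 8R6 group. The fitted log2 fold change of Csa18g023200 against the control was -2.36 ± 0.51 (SE).

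The LEA family genes Csa15g023720 and Csa01g002040, whose proteins are known to accumulate in drying tissue, ranked 7 and 10. Csa15g023720 showed 2.38, 1.56 and 0.619 CPM with 8R6, against 14.1, 20.4 and 4.69 CPM in *35S::acdS*, 8.596, 4.37 and 7.89 CPM in *rolD::acdS* and 10.1, 3.47 and 10.6 CPM in the control. Csa01g002040 showed 22.4, 23.3 and 10.3 CPM with 8R6, against 129.8, 156 and 31.4 CPM in *35S::acdS*, 55.4, 45.96 and 82.03 CPM in *rolD::acdS* and 73.05, 23.5 and 88.9 CPM in the control. The margin of Csa01g002040 was 1.01-fold, between 8R6 library 2 and control library 2. The most abundant member was a homeologue of the dehydrin *RAB18*, a small hydrophilic protein induced by ABA. This gene, Csa11g104590, was counted at 318, 224 and 159 CPM with 8R6, against 963, 1017 and 378 CPM in *35S::acdS*, 560.4, 421 and 595 CPM in *rolD::acdS* and 743, 485 and 587 CPM in the control. Its homeologue Csa18g042170 followed the same order of libraries within the 8R6 and *35S::acdS* groups, with 84.2 to 133 CPM with 8R6, 159 to 540 CPM in *35S::acdS*, 173 to 286 CPM in *rolD::acdS* and 187 to 348 CPM in the control. The other members of the group, Csa13g008780 (LEA4-5) and Csa02g075980 (unknown protein), were 2.49-fold and 2.53-fold under the smallest other group mean. Together the 9 genes summed to 509.9, 408 and 273 CPM with 8R6, against 1865, 2007 and 679.6 CPM in *35S::acdS*, 1099.9, 776 and 1144 CPM in *rolD::acdS* and 1348, 781 and 1118 CPM in the control.

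Raffinose family sugars are compatible solutes that protect drying cells, and 3 of the 4 annotated genes of that pathway were members. Csa09g070000 is a homologue of *SIP2*, whose *A. thaliana* product is an alpha-galactosidase acting on raffinose, and ranked 12. It gave 128, 104 and 65.8 CPM in the 8R6 libraries, 688, 495 and 373 CPM in *35S::acdS*, 382, 239.9 and 293 CPM in *rolD::acdS* and 403, 144 and 423 CPM in the control. Both homeologues of raffinose synthase (AT5G40390) were lower in level. Csa11g057610 had 10.8, 7.93 and 6.71 CPM in the 8R6 libraries, 31.1, 26.9 and 16.2 CPM in *35S::acdS*, 31.3, 18.2 and 17.96 CPM in *rolD::acdS* and 28.1, 12.1 and 22.3 CPM in the control, and Csa10g047220 had 13.2 to 23.3 CPM with 8R6, 35.5 to 55.1 CPM in *35S::acdS*, 40.1 to 79.1 CPM in *rolD::acdS* and 27.5 to 63.2 CPM in the control. For all 3 genes control library 2 was the lowest outside the 8R6 group.

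**Figure D2:**
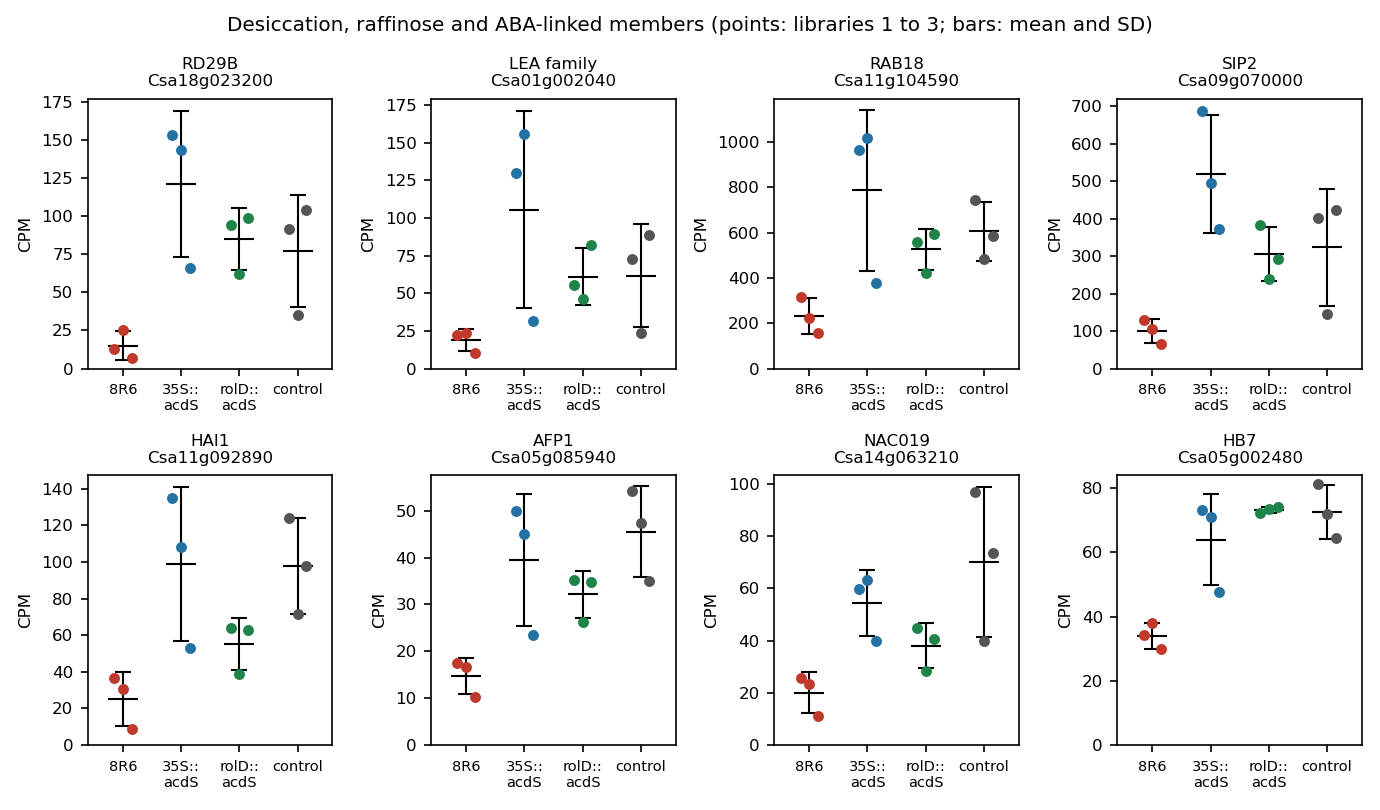
CPM of 8 members of the desiccation, raffinose and ABA lists by group; points are the 3 libraries, the horizontal mark and bars the mean and SD. For *RAB18* (Csa11g104590) the 8R6 libraries lie between 159 and 318 CPM and the lowest other library is at 378 CPM; the SD bars of *35S::acdS* are wide because its library 3 is low.

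Genes that restrain ABA signalling formed the next group, with 6 members of 16 annotated PP2C and AFP genes. In *A. thaliana* HAI1 is a clade A PP2C strongly induced by ABA, and the AFP proteins bind ABI5 and dampen its action. The *HAI1* homeologue Csa11g092890 had 36.6, 30.5 and 8.66 CPM in the 8R6 libraries, 135, 108 and 52.98 CPM in *35S::acdS*, 64.1, 38.8 and 62.9 CPM in *rolD::acdS* and 124, 71.6 and 97.6 CPM in the control. Its homeologue Csa02g064780 had 48.2, 46.7 and 11.04 CPM in the 8R6 libraries, 154, 138 and 67.7 CPM in *35S::acdS*, 83.7, 58.6 and 87.5 CPM in *rolD::acdS* and 158, 102 and 116 CPM in the control. In both, 8R6 library 3 was the lowest of all, far below its other replicates, and all 3 *rolD::acdS* libraries lay below all 3 control libraries. *AFP2* (Csa17g019090) had 7.18, 5.46 and 3.24 CPM with 8R6, against 16.8, 16.6 and 8.29 CPM in *35S::acdS*, 13.7, 10.1 and 12.9 CPM in *rolD::acdS* and 18.9, 8.34 and 15.9 CPM in the control. *AFP1* (Csa05g085940) had 17.4, 16.6 and 10.3 CPM with 8R6, against 49.9, 45.1 and 23.4 CPM in *35S::acdS*, 35.2, 26.3 and 34.9 CPM in *rolD::acdS* and 54.2, 47.4 and 34.9 CPM in the control. Its homeologue Csa16g030570 and *AFP3* (Csa09g023040) were 2.03-fold and 1.93-fold under the smallest other group mean. The 6 genes summed to 131, 121 and 46.97 CPM with 8R6, against 409.9, 354 and 179 CPM in *35S::acdS*, 239, 162 and 242 CPM in *rolD::acdS* and 414, 269.5 and 302 CPM in the control.

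Transcription factors that act downstream of ABA and osmotic stress were also members. These were 2 of 14 annotated NAC genes, 3 of 8 MYB genes and 1 of 7 homeobox genes. By fitted log2 fold change, 5 of the 12 other NAC genes were higher with 8R6 than in *35S::acdS*, and 5 of 12 higher than in *rolD::acdS*. All 12 were lower than in the control. The NAC members were 2 homeologues of *NAC019*, a factor responsive to ABA and jasmonate in *A. thaliana*. Csa14g063210 had 25.7, 23.5 and 11.04 CPM in the 8R6 libraries, 59.7, 63.3 and 39.9 CPM in *35S::acdS*, 44.96, 28.3 and 40.7 CPM in *rolD::acdS* and 96.97, 39.7 and 73.6 CPM in the control. Csa17g093080 had 34.5, 30.5 and 15.2 CPM in the 8R6 libraries, 76.8, 85.02 and 64.7 CPM in *35S::acdS*, 59.4, 35.5 and 53.8 CPM in *rolD::acdS* and 117, 48.4 and 95.6 CPM in the control. *rolD::acdS* library 2 came closest to the 8R6 libraries in both, at 1.10-fold and 1.03-fold above the highest of them. The *MYB74* homeologues Csa08g049290 and Csa13g053050, known from *A. thaliana* as salt-responsive, ranked 19 and 20. Csa08g049290 stood at 3.29, 2.21 and 0.952 CPM with 8R6, against 10.4, 10.2 and 9.01 CPM in *35S::acdS*, 10.7, 4.28 and 5.13 CPM in *rolD::acdS* and 17.9, 4.36 and 11.1 CPM in the control. Csa13g053050 stood at 3.42, 1.56 and 1.05 CPM with 8R6, against 10.1, 7.96 and 6.49 CPM in *35S::acdS*, 10.6, 3.54 and 4.85 CPM in *rolD::acdS* and 15.995, 5.43 and 10.4 CPM in the control. In both, libraries 2 and 3 of *rolD::acdS* and library 2 of the control were each below the rest of their own group. *MYB102* (Csa10g021970) had 1.903, 2.21 and 1.57 CPM in the 8R6 libraries, 5.48, 5.31 and 3.06 CPM in *35S::acdS*, 7.18, 3.07 and 3.42 CPM in *rolD::acdS* and 8.53, 3.29 and 8.35 CPM in the control. *HB7* (Csa05g002480), a homeodomain factor that slows growth under water deficit in *A. thaliana*, had the steadiest values of this group, with 34.3, 38.1 and 29.9 CPM in the 8R6 libraries, 73.1, 71.1 and 47.6 CPM in *35S::acdS*, 72.2, 73.6 and 74.05 CPM in *rolD::acdS* and 81.4, 71.96 and 64.6 CPM in the control.

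Among jasmonate genes, 3 of 8 annotated synthesis genes, 3 of 15 JAZ genes and 1 of 16 turnover and response genes were members. Allene oxide cyclase closes the ring of the jasmonate precursor. *AOC1* (Csa06g005320) had 1.38, 5.197 and 4.57 CPM in the 8R6 libraries, 7.21, 5.83 and 20.5 CPM in *35S::acdS*, 24.02, 15.6 and 15.2 CPM in *rolD::acdS* and 20.99, 9.98 and 15.98 CPM in the control. *AOC3* (Csa09g008880) had 2.73, 2.66 and 2.19 CPM in the 8R6 libraries, 6.46, 3.696 and 9.19 CPM in *35S::acdS*, 7.22, 7.82 and 4.85 CPM in *rolD::acdS* and 6.26, 4.61 and 7.42 CPM in the control. *LOX3* (Csa03g021200), a 13-lipoxygenase that acts before the cyclase, had 6.79, 9.36 and 9.42 CPM in the 8R6 libraries, 14.7, 17.4 and 18.02 CPM in *35S::acdS*, 24.8, 23.9 and 22.9 CPM in *rolD::acdS* and 30.3, 13.7 and 31.5 CPM in the control. In *AOC1* and *AOC3* library 3 was the highest of *35S::acdS*, while it was the lowest of that group in the desiccation genes given by library above. Summed over the 3 genes, levels were 10.9, 17.2 and 16.2 CPM with 8R6, against 28.4, 26.96 and 47.7 CPM in *35S::acdS*, 56.1, 47.4 and 42.96 CPM in *rolD::acdS* and 57.5, 28.3 and 54.9 CPM in the control.

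JAZ proteins repress jasmonate response genes and are themselves induced by the hormone. *JAZ10* was present as 2 members. Csa08g005100 showed 5.93, 4.48 and 5.38 CPM with 8R6, against 19.4, 10.6 and 12.9 CPM in *35S::acdS*, 16.8, 18.4 and 11.1 CPM in *rolD::acdS* and 17.8, 10.9 and 20.9 CPM in the control. Csa20g018590 showed 1.99, 1.43 and 1.95 CPM with 8R6, against 5.33, 3.96 and 4.14 CPM in *35S::acdS*, 6.103, 4.93 and 3.33 CPM in *rolD::acdS* and 5.86, 2.72 and 8.01 CPM in the control. *JAZ1* (Csa03g023010) had 20.98, 16.6 and 11.4 CPM in the 8R6 libraries, 43.3, 33.05 and 33.7 CPM in *35S::acdS*, 39.9, 31.2 and 22.8 CPM in *rolD::acdS* and 42.1, 24.2 and 58.6 CPM in the control. Control library 2 was the lowest of the control for all 3. *CYP94B1* (Csa02g071910, rank 100), an enzyme that hydroxylates the active conjugate jasmonoyl-isoleucine in *A. thaliana*, had 1.56, 1.88 and 2.33 CPM in the 8R6 libraries, 2.86, 3.87 and 5.05 CPM in *35S::acdS*, 10.8, 12.5 and 5.04 CPM in *rolD::acdS* and 11.9, 5.62 and 9.75 CPM in the control. Libraries 1 and 2 of *35S::acdS* were the nearest to those with 8R6, and all 3 libraries of that line lay under the 3 control libraries.

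All 4 annotated amidohydrolases were members, enzymes that release auxin from its amino acid conjugates and, in *A. thaliana*, also act on jasmonoyl-isoleucine. The 3 homeologues of *ILL6* were Csa17g070920, Csa03g046940 and Csa14g049310. Csa17g070920 had 5.23, 6.302 and 5.14 CPM in the 8R6 libraries, 13.4, 12.7 and 14.1 CPM in *35S::acdS*, 16.8, 12.1 and 11.2 CPM in *rolD::acdS* and 22.3, 8.34 and 28.1 CPM in the control. Csa03g046940 had 15.4, 12.9 and 13.4 CPM in the 8R6 libraries, 36.7, 29.8 and 34.7 CPM in *35S::acdS*, 40.7, 31.2 and 24.6 CPM in *rolD::acdS* and 48.9, 15.7 and 51.6 CPM in the control. Csa14g049310 had 7.699, 8.64 and 8.42 CPM in the 8R6 libraries, 17.8, 16.2 and 22.7 CPM in *35S::acdS*, 21.4, 17.1 and 15.4 CPM in *rolD::acdS* and 27.9, 9.03 and 30.9 CPM in the control. In each of the 3, the 8R6 libraries were close to each other and control library 2 was the lowest of the other 9. Csa14g060060, annotated as a peptidase M20 family protein, had 14.4, 17.6 and 14.2 CPM in the 8R6 libraries, 30.9, 27.9 and 40.004 CPM in *35S::acdS*, 45.9, 25.6 and 30.6 CPM in *rolD::acdS* and 48.2, 18.4 and 55.2 CPM in the control and the same low control library.

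**Figure D3:**
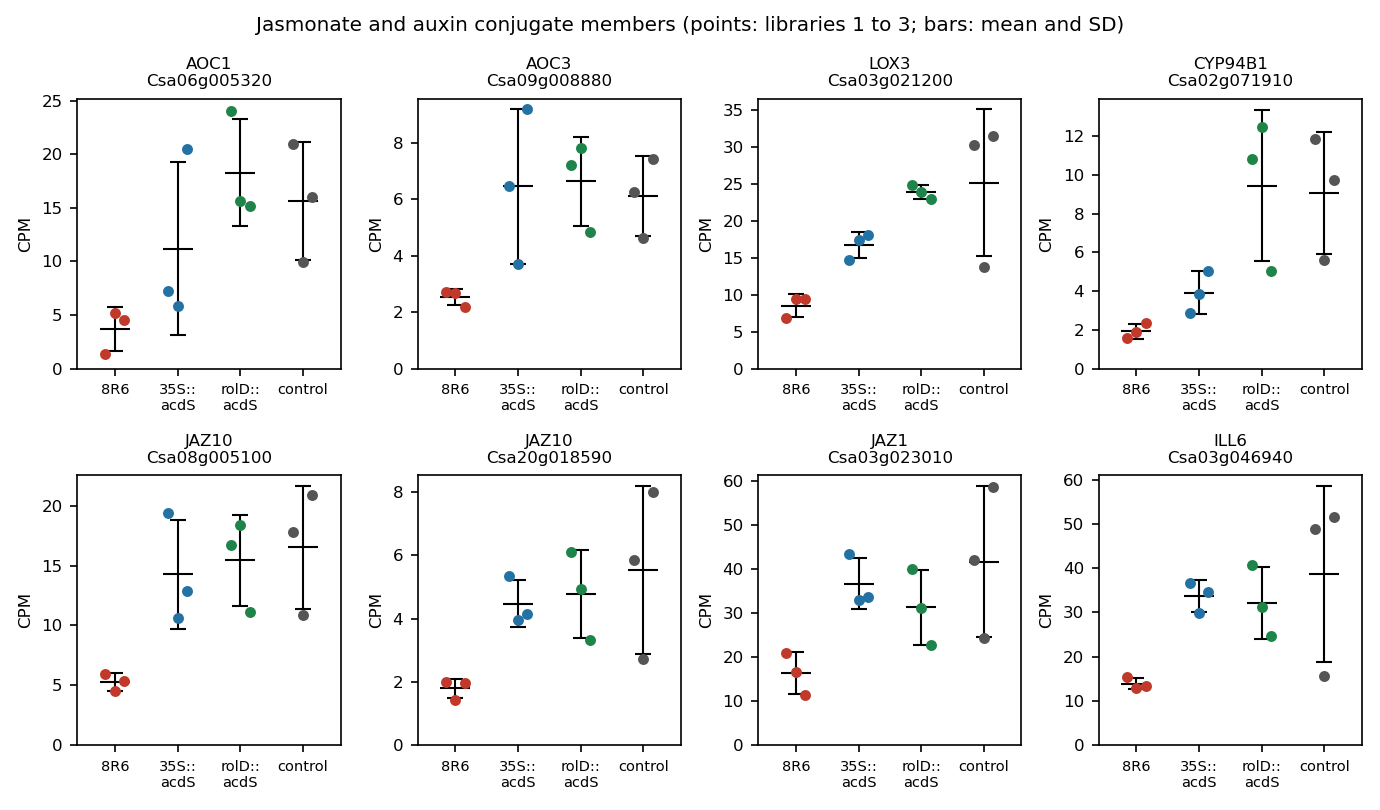
CPM of 8 members of the jasmonate and auxin conjugate lists by group; points are the 3 libraries, the horizontal mark and bars the mean and SD. For *ILL6* (Csa03g046940) control library 2 sits at 15.7 CPM, just above the 8R6 maximum of 15.4 CPM, while the other control libraries are at 48.9 and 51.6 CPM.

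Of 18 annotated AP2/ERF factors, 4 were members. *RAP2.6*, an ERF induced by ABA, jasmonate and salt in *A. thaliana*, gave ranks 9 and 11. Csa17g069360 had 5.49, 3.05 and 4.33 CPM in the 8R6 libraries, 16.98, 13.1 and 15.4 CPM in *35S::acdS*, 35.6, 29.1 and 8.27 CPM in *rolD::acdS* and 18.9, 11.4 and 14.8 CPM in the control. Csa03g046520 had 15.3, 7.93 and 13.3 CPM in the 8R6 libraries, 46.7, 33.4 and 38.6 CPM in *35S::acdS*, 85.7, 102 and 31.7 CPM in *rolD::acdS* and 52.3, 36.3 and 54.9 CPM in the control. *rolD::acdS* libraries 1 and 2 were the highest of all 12 in both, and *rolD::acdS* library 3 the lowest outside the 8R6 group. The remaining factors of this family were Csa11g015760 (AT4G28140) and Csa11g101890 (AT5G64750). Csa11g015760 had 13.5, 12.9 and 6.81 CPM with 8R6, against 36.6, 32.9 and 31.4 CPM in *35S::acdS*, 36.5, 21.2 and 20.2 CPM in *rolD::acdS* and 54.5, 14.4 and 28.2 CPM in the control. Csa11g101890 had 3.24, 2.79 and 1.38 CPM with 8R6, against 6.01, 7.78 and 4.32 CPM in *35S::acdS*, 8.98, 6.14 and 3.33 CPM in *rolD::acdS* and 7.46, 5.18 and 9.75 CPM in the control. The gap to the nearest library was small for these, at 1.06-fold and 1.03-fold.

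Of 10 annotated transport genes, 3 were members. Csa11g065360, of the aluminium activated malate transporter family, whose proteins are anion channels, ranked 5 and had the largest ratio of CPM, the smallest other group mean being 7.13-fold the 8R6 mean. It had 0.173, 0.7796 and 0.286 CPM in the 8R6 libraries, 5.11, 3.17 and 3.78 CPM in *35S::acdS*, 4.599, 2.42 and 1.81 CPM in *rolD::acdS* and 2.799, 2.02 and 4.24 CPM in the control. The MATE efflux gene Csa02g045020, with an orthologue known in *A. thaliana* to export ABA, had 1.298, 1.04 and 1.09 CPM in the 8R6 libraries, 11.3, 3.83 and 4.96 CPM in *35S::acdS*, 6.83, 4.47 and 2.57 CPM in *rolD::acdS* and 6.53, 1.895 and 4.41 CPM in the control. The chloride channel gene *CLC-b* (Csa09g012970), a vacuolar anion transporter, had 5.19, 5.33 and 3.66 CPM in the 8R6 libraries, 12.9, 12.96 and 13.6 CPM in *35S::acdS*, 16.6, 8.19 and 9.03 CPM in *rolD::acdS* and 14.5, 6.19 and 15.1 CPM in the control. The first of these rests on few reads, since 0.173 CPM in 8R6 library 1 was 4 counts.

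Lipid transfer proteins carry fatty acids or wax precursors to the cell surface, and 3 of them were members. Csa15g038250 and Csa15g038240 have consecutive gene numbers on chromosome 15 and *A. thaliana* orthologues that are close to each other. Csa15g038250 had 0.173, 0.9095 and 0.619 CPM in the 8R6 libraries, 1.95, 2.78 and 3.33 CPM in *35S::acdS*, 5.76, 3.63 and 3.14 CPM in *rolD::acdS* and 4.67, 1.64 and 2.46 CPM in the control. Csa15g038240 had 0.865, 1.49 and 0.857 CPM in the 8R6 libraries, 2.93, 4.31 and 5.14 CPM in *35S::acdS*, 6.103, 5.12 and 4.47 CPM in *rolD::acdS* and 5.13, 1.83 and 2.76 CPM in the control. *LTP3* (Csa02g065030) had 1.12, 1.62 and 2.24 CPM in the 8R6 libraries, 9.84, 7.83 and 3.69 CPM in *35S::acdS*, 3.91, 5.86 and 3.42 CPM in *rolD::acdS* and 5.798, 3.73 and 3.94 CPM in the control. All 3 were at 2.24 CPM or less in every 8R6 library. Both DnaJ chaperone homeologues (AT1G71000) ranked next to each other, at 15 and 16. Csa09g072340 had 7.05, 5.002 and 2.33 CPM with 8R6, against 23.2, 24.9 and 15.7 CPM in *35S::acdS*, 16.4, 13.03 and 14.8 CPM in *rolD::acdS* and 20.3, 10.6 and 22.6 CPM in the control. Csa07g037880 had 4.67, 4.35 and 1.62 CPM with 8R6, against 14.7, 14.9 and 11.8 CPM in *35S::acdS*, 14.9, 8.09 and 9.32 CPM in *rolD::acdS* and 12.1, 7.64 and 18.4 CPM in the control.

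Ubiquitin ligase and related genes gave 5 members of 16 annotated. The 3 homeologues of the RING gene AT1G24580 were all among them. Csa17g035560 had 1.903, 1.69 and 1.33 CPM in the 8R6 libraries, 6.99, 6.31 and 4.32 CPM in *35S::acdS*, 5.42, 5.303 and 5.51 CPM in *rolD::acdS* and 7.86, 5.75 and 4.75 CPM in the control. Csa03g030150 had 2.77, 2.47 and 1.81 CPM in the 8R6 libraries, 9.54, 6.57 and 4.59 CPM in *35S::acdS*, 6.404, 4.19 and 5.13 CPM in *rolD::acdS* and 10.3, 5.94 and 5.85 CPM in the control. Csa14g034500 had 3.55, 1.82 and 1.24 CPM in the 8R6 libraries, 7.44, 6.697 and 5.14 CPM in *35S::acdS*, 5.97, 4.09 and 4.66 CPM in *rolD::acdS* and 8.46, 6.13 and 5.21 CPM in the control. Csa17g035560 kept the widest gap of the 3, at 2.27-fold, against 1.51-fold and 1.15-fold. The RING gene Csa05g082020 had 0.619 to 1.21 CPM with 8R6, 1.62 to 3.78 CPM in *35S::acdS*, 1.58 to 2.79 CPM in *rolD::acdS* and 1.90 to 5.20 CPM in the control. *BT1* (Csa18g036700), a BTB and TAZ domain protein, had 34.4, 39.3 and 34.5 CPM in the 8R6 libraries, 94.2, 67.8 and 49.01 CPM in *35S::acdS*, 80.8, 91.5 and 77.4 CPM in *rolD::acdS* and 114, 85.9 and 81.2 CPM in the control.

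**Figure D4:**
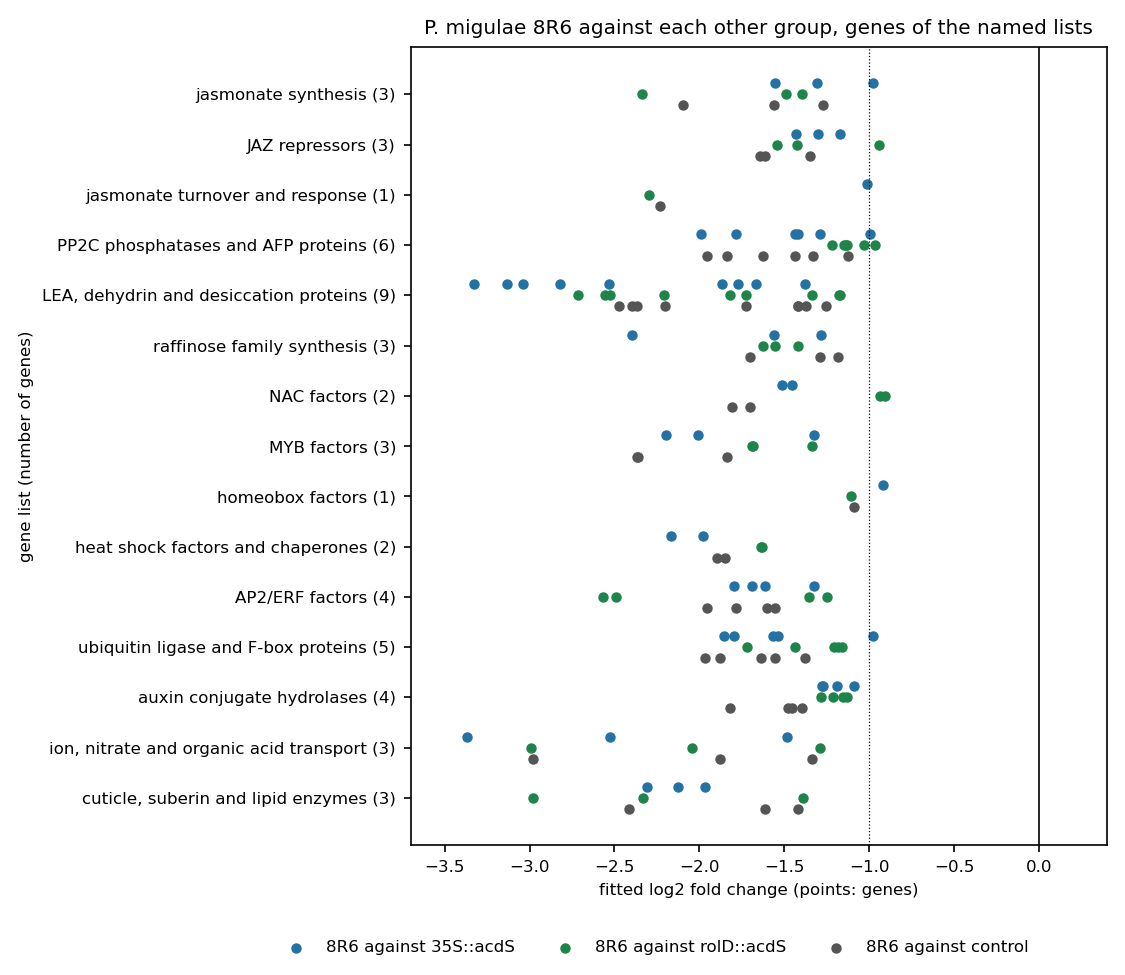
Fitted log2 fold change of 8R6 against *35S::acdS*, *rolD::acdS* and the control for the 52 members that fall in a list; each point is 1 gene, the dotted line marks -1. Csa11g065360 is the lowest point in each comparison, at -3.37, -2.99 and -2.98 in the order of the groups above; the next lowest is the *RD29B* homeologue Csa11g083980 against *35S::acdS* (-3.33) and the control (-2.47), and the lipid transfer gene Csa15g038250 (-2.98) against *rolD::acdS*. The *NAC019* homeologues are the least negative against *rolD::acdS*, at -0.94 and -0.91.

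The top 10 held 3 genes of no list. Csa09g079900, annotated as an NmrA-like regulator of the isoflavone reductase kind, had 0.995, 1.49 and 0.857 CPM in the 8R6 libraries, 9.17, 3.696 and 15.5 CPM in *35S::acdS*, 15.9, 5.68 and 4.47 CPM in *rolD::acdS* and 9.66, 2.34 and 9.92 CPM in the control. Csa20g001790, of the phosphatidylethanolamine-binding proteins, had 6.57, 9.36 and 5.66 CPM in the 8R6 libraries, 42.7, 40.6 and 13.3 CPM in *35S::acdS*, 38.9, 79.2 and 39.8 CPM in *rolD::acdS* and 29.99, 24.5 and 30.7 CPM in the control. Csa08g018370, a protein kinase, had 0.433, 1.299 and 0.666 CPM in the 8R6 libraries, 4.81, 5.22 and 5.23 CPM in *35S::acdS*, 7.91, 4.65 and 1.43 CPM in *rolD::acdS* and 5.998, 2.21 and 3.69 CPM in the control. The values of Csa09g079900 were scattered within all 3 other groups, while those of Csa20g001790 were close together in the control. Homeologues of the last 2 of these genes, Csa13g001570 and Csa20g039280, ranked 21 and 27.

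The 38 annotated members outside the lists were 1.88-fold to 6.55-fold under the smallest other group mean. They included 2 homeologues each of the secreted ribonuclease 1, of a PB1 domain gene (AT1G70640), of *MEE25* (AT2G34850), of *RABC2b*, of a glycosyl hydrolase of family 17 (AT5G55180) and of *COR27*, and 3 calcium-dependent phosphotriesterase genes. *COR27* encodes a cold-induced clock protein in *A. thaliana*; Csa20g066690 had 4.89, 5.91 and 3.998 CPM in the 8R6 libraries, 10.1, 11.8 and 9.37 CPM in *35S::acdS*, 11.002, 17.2 and 10.6 CPM in *rolD::acdS* and 12.4, 9.92 and 12.8 CPM in the control. *TSPO* (Csa06g054300), a haem-binding membrane protein induced by ABA, had 3.46, 3.51 and 0.999 CPM in the 8R6 libraries, 16.4, 13.4 and 5.41 CPM in *35S::acdS*, 5.76, 6.33 and 7.41 CPM in *rolD::acdS* and 8.997, 3.73 and 10.7 CPM in the control. The 10 members with no annotation were Csa11g083710, Csa10g017520, Csa12g009870, Csa06g028440, Csa02g069780, Csa19g031830, Csa18g009680, Csa16g032680, Csa14g020950 and Csa11g104180, at 1.84-fold to 2.76-fold. Csa02g069780 was the gene among these with close replicates in all 4 groups, at 16.2, 13.8 and 13.7 CPM in the 8R6 libraries, 29.8, 27.5 and 28.02 CPM in *35S::acdS*, 31.5, 32.2 and 25.7 CPM in *rolD::acdS* and 30.7, 26.7 and 26.6 CPM in the control.

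Some homeologues were chosen together. Of the 60 orthologues, 17 had 2 members and 3 had 3 members, which together made up 43 of the genes. Orthologues were given only for genes that the study had listed as changed on these libraries. These counts therefore cannot be set against a share over all genes. Over the 9 libraries outside the 8R6 group, whose values among themselves the rule used only through their minimum and group means, log2(CPM + 0.5) of 26 homeologue pairs had a median Pearson correlation of 0.94 (0.77 to 0.99). The other 4924 pairs of members had a median of 0.32. The points share libraries, depth and, for homeologues, possibly reads, since how reads mapping to several sub-genomes were counted is not given in the sources used here. A further 30 annotated homeologues of members were not among the 100. Of these, 6 met the rule at ranks past 100, 6 had a group mean under 2 CPM and 18 had an 8R6 library that reached the level of another library.

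Genes of the same lists that were not members were, in part, below all 9 other libraries as well. This held for 3 of 12 JAZ genes, 3 of 5 MYB genes, 3 of 6 homeobox genes, 4 of 11 ubiquitin genes, 2 of 10 PP2C and AFP genes and 1 of 11 LEA, dehydrin and desiccation genes. It also held for 2 of 6 heat shock genes, 2 of 7 transport genes and 2 of 4 cuticle, suberin and lipid genes. For jasmonate it held for 1 of 5 synthesis genes and 1 of 15 turnover and response genes. It held for 0 of 12 NAC genes, 0 of 14 AP2/ERF genes and 0 of 1 raffinose genes. The same was true of 0 of 3 ABA synthesis, 0 of 4 MAP kinase kinase kinase and 0 of 4 photosystem genes. None of the 3 ABA synthesis genes, the 4 MAP kinase kinase kinase genes and the 4 photosystem genes was a member. Over the 42079 genes with the 2 CPM minimum, 2.25% were below all 9 other libraries. The genes of the lists were annotated because the study had listed them as changed in at least 1 group on these libraries. Their shares therefore cannot be read against that of all genes.

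The rule did not compare the other 3 groups with each other, so the members could be tested there, although ranking on the smallest of their 3 means favours genes at like levels in all 3. In the quasi-likelihood test of edgeR, with p adjusted over 56932 genes by the Benjamini-Hochberg method, 0 members passed in *35S::acdS* against the control, where 0% of all genes passed. At an unadjusted p under 0.05, 1 member was higher and 2 were lower, where 2.95% of all genes were higher and 4.81% lower. Without *35S::acdS* library 3 the counts were 15 higher and 2 lower, where 2004 and 3291 of all 56737 genes were. Without control library 1 they were 4 and 1, where 1626 and 2632 of 56761 genes were. Without control library 2 they were 2 and 8, where 871 and 1840 of 56679 genes were. The balance between higher and lower members thus turned on single libraries. The fitted log2 fold changes of the members ran between -1.22 and 0.96 with a median of 0.06. DESeq2 and limma called 0 members too, where they called 19 and 0 of all genes. Complete separation of the 3 libraries was seen above the control for 1 member (6.41% of all genes) and below it for 1 (7.29%).

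The member above the control was Csa04g043410, a calcium-dependent phosphotriesterase gene. This gene had 10.8, 7.99 and 6.52 CPM in the 8R6 libraries, 44.6, 22.004 and 29.7 CPM in *35S::acdS*, 22.05, 23.1 and 16.3 CPM in *rolD::acdS* and 19.7, 13.96 and 16.1 CPM in the control. Its log2 fold change was 0.96 ± 0.25 (SE) for *35S::acdS* against the control with an adjusted p of 0.621 by edgeR's quasi-likelihood test. *CYP94B1* (Csa02g071910), whose libraries are given above, was the one below, with -1.22 ± 0.33 (SE) and an adjusted p of 0.621 in the same edgeR test. *LOX3* (Csa03g021200) had -0.58 ± 0.25 (SE) and an adjusted p of 0.636 in the same edgeR test. None of the 3 differences passed after adjustment. With edgeR's exact test at a fixed biological coefficient of variation (BCV) of 0.2, the adjusted p was 0.000914 for Csa02g071910, 0.00712 for Csa04g043410 and 0.328 for Csa03g021200. These were the lowest over the alternatives for each gene, and the highest was 1 for all 3.

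In *rolD::acdS* against the control, 0 members again passed the Benjamini-Hochberg adjusted edgeR test (0% of all genes). DESeq2 and limma called 0 members, where they called 164 and 1 of all genes. At an unadjusted p under 0.05, 10 members were higher and 2 lower, against 3.29% and 5.07% of all genes. The counts were 8 higher and 13 lower without control library 2, which turned their balance, where 2708 and 3564 of all 56679 genes were. They were 4 and 0 without *rolD::acdS* library 2, where 993 and 1836 of 56751 genes were. The 3 *rolD::acdS* libraries lay above the control for 7 members (5.88% of all genes) and below it for 3 (7.37%). Those below were Csa04g047130, annotated as a Rossmann-fold protein, and both *HAI1* homeologues. Those above were Csa07g037510, both phosphatidylethanolamine-binding genes (Csa20g001790 and Csa13g001570), Csa03g038850 (thioesterase), Csa06g009140 (nodulin MtN3 family), Csa11g072120 (*COR27*) and Csa11g104180. The smallest p belonged to the PB1 domain gene Csa07g037510, with 1.12, 1.56 and 1.24 CPM in the 8R6 libraries, 3.38, 3.65 and 3.96 CPM in *35S::acdS*, 6.75, 13.2 and 4.47 CPM in *rolD::acdS* and 4.13, 2.97 and 3.22 CPM in the control. Its log2 fold change was 1.23 ± 0.30 (SE) with an adjusted p of 0.338 in edgeR's quasi-likelihood test. Its homeologue Csa16g032240 had 5.67, 6.76 and 6.81 CPM in the 8R6 libraries, 19.01, 20.8 and 13.7 CPM in *35S::acdS*, 31.8, 49.9 and 16.7 CPM in *rolD::acdS* and 18.99, 15.1 and 12.9 CPM in the control with a fitted log2 change of 1.06 ± 0.30 (SE) and an adjusted p of 0.396 in edgeR's test. In both genes *rolD::acdS* library 2 was the highest of all.

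Of the 52 members in lists, *LOX3* and *CYP94B1* had an unadjusted p under 0.05 in *35S::acdS* against the control, both lower. In *rolD::acdS* against the control, both *NAC019* homeologues were so on the lower side and the lipid transfer gene Csa15g038240 on the higher. In *rolD::acdS* against *35S::acdS*, *CYP94B1* and the *RAP2.6* homeologue Csa03g046520 were so, both higher. The annotated genes of the lists, members or not, gave 0 calls in any of the 3 tested comparisons by edgeR's quasi-likelihood test. At an unadjusted p under 0.05, 11 of 16 jasmonate turnover and response genes were lower in *35S::acdS* against the control, and 12 of 16 were higher in *rolD::acdS* against *35S::acdS*. In *rolD::acdS* against the control, 11 of 14 NAC genes and 8 of 18 AP2/ERF genes were lower. All of these genes were annotated because the study had listed them as changed on the same libraries, so their shares cannot be read against those of all genes.

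The ribonuclease 1 homeologues differed most between the transgenic lines. In *A. thaliana* this secreted enzyme is induced by wounding and phosphate shortage. Csa04g008480 had 4.93, 6.17 and 6.66 CPM in the 8R6 libraries, 9.54, 16.8 and 19.2 CPM in *35S::acdS*, 55.2, 53.6 and 17.5 CPM in *rolD::acdS* and 21.3, 17.8 and 21.1 CPM in the control. Csa09g005240 had 2.55, 4.35 and 5.38 CPM in the 8R6 libraries, 6.31, 9.61 and 12.9 CPM in *35S::acdS*, 34.6, 35.5 and 10.9 CPM in *rolD::acdS* and 11.7, 10.7 and 12.3 CPM in the control. Libraries 1 and 2 of *rolD::acdS* were far above every other library in both, while library 3 of that line lay among the *35S::acdS* and control libraries, so the groups overlapped. The log2 fold change of *rolD::acdS* against *35S::acdS* was 1.47 ± 0.34 (SE) for Csa04g008480 and 1.50 ± 0.38 (SE) for Csa09g005240, both with an adjusted p of 0.327 in edgeR's quasi-likelihood test. DESeq2 called both, with adjusted p of 0.0165 and 0.0339, and over all alternatives the adjusted p ran between 1.06e-06 and 1 for Csa04g008480 and between 1.2e-06 and 1 for Csa09g005240. *CYP94B1* (Csa02g071910) had 1.28 ± 0.34 (SE) and an adjusted p of 0.327 in edgeR's test.

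Over all members, *rolD::acdS* against *35S::acdS* gave 0 calls in edgeR's quasi-likelihood test (0% of all genes). DESeq2 called 2 members and 107 of all genes, and limma 0 members and 1 of all genes. At an unadjusted p under 0.05, 9 members were higher and 2 lower in *rolD::acdS*, against 6.78% and 6.08% of all genes. They were 5 higher and 13 lower without *35S::acdS* library 3, which turned their balance, where 4285 and 3969 of all 56737 genes were. Without *rolD::acdS* library 2 they were 4 and 2, where 2801 and 1960 of 56751 genes were. Without control library 2 they were 12 and 6, where 4186 and 3946 of 56679 genes were. The 3 *rolD::acdS* libraries lay above those of *35S::acdS* for 2 members (9.42% of all genes), Csa07g037510 and Csa03g021200. They lay below for 2 (10.3%), Csa12g037520 and Csa17g093080. For *LOX3* (Csa03g021200) the *rolD::acdS* libraries held 22.9 to 24.8 CPM and those of *35S::acdS* 14.7 to 18.02 CPM. The members as a whole had a median log2 fold change of -0.03 in this comparison and 0.01 in *rolD::acdS* against the control.

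**Figure D5:**
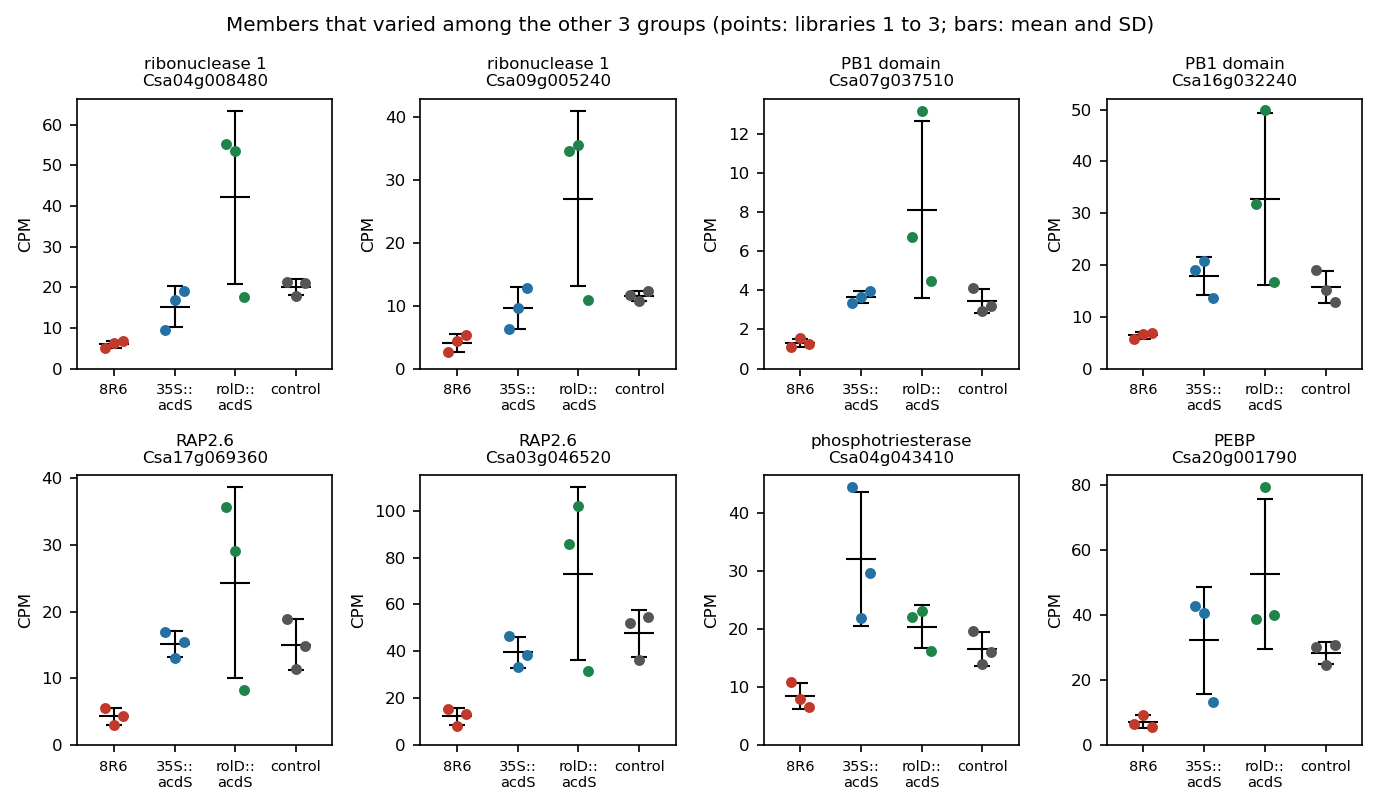
CPM of 8 members that varied among the other 3 groups; points are the 3 libraries, the horizontal mark and bars the mean and SD. Both ribonuclease 1 homeologues and both *RAP2.6* homeologues are high in libraries 1 and 2 of *rolD::acdS* and lower in its library 3, at 17.5, 10.9, 8.27 and 31.7 CPM.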

How the data were processed

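RNA of whole shoots was sequenced in 12 libraries by the study (stranded TruSeq kits). The authors trimmed reads with Trimmomatic, mapped them with STAR to the *C. sativa* genome and deposited counts per gene. Although the deposited file calls its values CPM, they are whole-number counts whose totals differ between libraries. The treatment of reads that map to several homeologues is not given in the sources used here. Supplementary tables of the study were used for gene names, *A. thaliana* orthologues and which genes it had listed. Their fold changes were not used.

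CPM was the count divided by the column sum. The 100 members followed the rule stated in the report. The members and the gene lists were chosen with earlier results of these data known. The 56932 genes that reached 0.5 CPM in 3 or more libraries were fitted on counts with edgeR 4.0.16 in R 4.3.3, TMM scaling (factors 0.967 to 1.04) and 1 model over the 4 groups with no covariate. The common BCV was 0.189. The SE printed with a fitted log2 fold change is its absolute value divided by the square root of the quasi-likelihood F statistic. It is therefore not an estimate separate from the p-value. Contrasts among *35S::acdS*, *rolD::acdS* and control were tested with the quasi-likelihood test and Benjamini-Hochberg adjustment over all genes; a gene was called when the adjusted p did not exceed 0.05 and the change was over 2-fold in size. The study itself used edgeR with a fixed BCV. The p-values measure the spread between these libraries, and 3 against 3 libraries allow an exact permutation p no smaller than 0.1. Only the quasi-likelihood fit of *rolD::acdS* against the control was also run on simulated counts, at a lower limit of fold change than the calls used.

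Genes named were the first 10, members of the fixed lists (at most 4 per list in full), ranks 96 to 105 and the 3 members with the smallest p in each tested contrast. A few others were named after their values were seen: members separated between groups, *TSPO*, *COR27*, homeologues of named genes and the 10 without annotation. Alternatives were RLE scaling, CPM without TMM, no filter, 6 libraries only, a replicate block, DESeq2 1.42.0, limma 3.58.1 on log2(CPM + 0.5), edgeR's exact test with fixed BCV, other pseudocounts and minimums in the rule, and each library left out in turn.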

Additional observations from a re-analysis of the deposited data

How the results depend on the processing

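With a library left out, the median log2 fold changes of the members with 8R6, whose sign the rule had fixed, ranged between -1.68 and -1.42 against *35S::acdS*, between -1.63 and -1.37 against *rolD::acdS*, and between -1.73 and -1.34 against the control. With the replicate block they were -1.53, -1.47 and -1.51 in that order. The numbers of the replicates were not taken as pairs, since over 18 pairs of libraries the correlation of their deviations ran between -0.389 and 0.318 and was over 0.1 in 10. The block left the calls among the members at 0 in all 3 tested comparisons.

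Those calls stayed at 0 under the other scaling, the absent filter, 6 libraries, limma, edgeR's exact test with a BCV of 2 and every library left out (0 to 0). The counts of members at an unadjusted p under 0.05 moved more, with 2 to 17 in *35S::acdS* against the control, 4 to 21 in *rolD::acdS* against the control and 6 to 18 in *rolD::acdS* against *35S::acdS* when a library was left out. With a BCV of 0.2, fixed and not estimated, 1 member was called in *35S::acdS* against the control, 4 in *rolD::acdS* against the control and 4 in *rolD::acdS* against *35S::acdS*. Of all genes, 1034, 1354 and 1370 were called in that order. DESeq2 called 2 members and 107 of all genes in *rolD::acdS* against *35S::acdS*. The cause of its difference from edgeR was not tested.

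The list itself depended more on its libraries than on its settings. Under TMM-scaled CPM 98 members stayed, with pseudocounts of 0.1 and 2 CPM 93 and 88, and with minimums of 1 and 5 CPM 95 and 78. With a library left out 44 to 96 stayed, and between 1004 and 2527 genes met the rule, since fewer libraries then had to be separated. Groups of 3 libraries limit all of these values, and members with few reads in the 8R6 libraries are the least precise.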
